A study of Mus musculus with 5 samples.

Results

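The cytosolic heat shock chaperones examined here are 10 genes, chosen by name among the 55411 mouse genes counted: the Hsp110 genes *Hspa4l*, *Hsph1* and *Hspa4*, the Hsp90 genes *Hsp90ab1* and *Hsp90aa1*, the Hsp70 genes *Hspa8* and *Hspa1b*, the Hsp40 gene *Dnajb1*, the co-chaperone gene *Bag3* and the heat shock factor gene *Hsf1*. Each symbol matched 1 gene identifier, and all 10 genes passed the filter on low counts. They were measured in olfactory sensory neurons (OSNs) of the main olfactory epithelium that transcribe *Olfr151*, a receptor gene whose product is activated by acetophenone. Male mice homozygous for the *Olfr151*tm26Mom allele, in which an IRES-tau-GFP cassette marks the neurons that use this gene, were exposed at 7 weeks of age for 5 h to 5% acetophenone in DMSO (exposed) or to DMSO alone (control). Both conditions carry the allele and went through the same dissociation and sorting of GFP-positive live cells. Each library is a pool from 4 mice, with 200 sorted cells per pool by the sample labels and the study's methods (the labels' protocol text gives 400). Control pools 1, 2 and 3 and exposed pools 1 and 3 were analysed. Values by library are given in the order of these numbers.

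Heat shock proteins of the Hsp70 class bind unfolded stretches of other proteins and release them in cycles driven by ATP. Hsp40 proteins deliver clients and start ATP hydrolysis, Hsp110 and Bag proteins exchange the spent nucleotide so that the client is released, and Hsp90 takes over folded but unstable clients such as kinases and receptors. Hsf1 is the transcription factor that raises many of these genes under heat or proteotoxic stress, through heat shock elements built of inverted GAA units. OSNs lie at the surface of the nasal cavity, where they meet inhaled chemicals, and they make large amounts of membrane protein for their cilia.

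After exposure, the Hsp110 genes *Hspa4l* and *Hsph1* were higher by about 3-fold, while the other 8 genes did not pass the test. A gene was called where its log2 fold change exceeded 0.5 in size and its p-value in edgeR's quasi-likelihood test, adjusted by Benjamini-Hochberg over all 10048 genes tested, was below 0.1. By this rule 2 of 10 genes were called higher, where 3.42% of all genes tested were (5.27% in either direction). None was called lower (1.85% of all genes tested), and 0 were lower at an unadjusted p-value under 0.05 or by DESeq2. At an unadjusted p-value under 0.05, 4 of the 10 were higher, and DESeq2 with shrunken fold changes called 2 higher. Of all 10048 genes tested, 927 were higher and 998 lower at that unadjusted threshold, and DESeq2 called 672 higher and 715 lower. The median log2 fold change of the 10 genes was 0.34, compared with -0.026 for all genes tested. In CPM (counts scaled to library size with the trimmed mean of M-values), both exposed libraries lay above all control libraries for 6 of the 10 genes. This was true of 20.3% of all genes tested. Both lay below all control libraries for 0 of the 10 and for 19.6% of all genes (39.9% did not overlap in either direction). Of the 6, *Hsp90ab1* and *Hspa8* overlapped between conditions in TPM (counts scaled to exon length and library size). In pooled cells, a change in the number of cells that transcribe a gene and a change in RNA per cell cannot be told apart. The libraries held 42780403 to 49527380 counts, and the lowest count of any of the 10 genes was 70, for *Hspa1b* in exposed pool 3, where 3 counts is the detection limit. Reads carried no molecular identifiers, so such limits cover counting error only. The count of 2 genes was 1 without control pool 1, control pool 3, exposed pool 1 or exposed pool 3, since *Hsph1* was no longer called, and 2 without control pool 2. With pool number as a replicate block, or with scaling by ERCC spike-in RNAs, 0 of the 10 genes were called. The block leaves fewer residual degrees of freedom, from which the spread is estimated, than the 3 of the main fit.

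**Figure D1:**
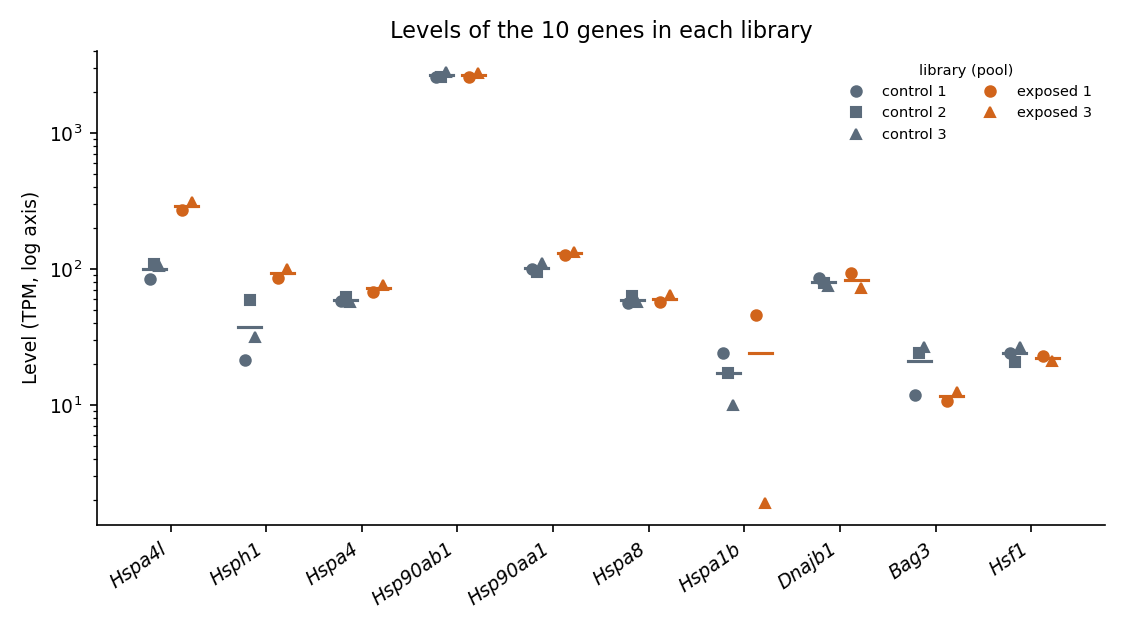
Level of each gene in TPM (counts scaled to exon length and library size, log axis) in the 3 control (grey) and 2 exposed (orange) libraries, with marker shape for the pool number and a bar for the mean of the condition. *Hspa4l* and *Hsph1* are separated between conditions, *Hsp90ab1* lies far above the other genes, and *Hspa1b* spreads over a wide range within the exposed condition.

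The levels of these genes in control neurons differed widely. Per exon length (TPM), *Hsp90ab1* was the most abundant at 2664 ± 127 TPM (SD, n = 3) in the controls, the 32nd most abundant gene of all. *Hsp90aa1* followed at 102 ± 7.92 TPM, *Hspa4l* at 99.5 ± 13.3 TPM and *Dnajb1* at 80.1 ± 5.49 TPM. The constitutive *Hspa8* was counted at 59.1 ± 3.88 TPM and *Hspa4* at 59.0 ± 2.97 TPM. *Hsph1* reached 37.2 ± 19.3 TPM, *Hsf1* 23.9 ± 2.996 TPM, *Bag3* 20.9 ± 8.02 TPM and *Hspa1b* 17.1 ± 7.13 TPM (SD, n = 3 for each). The control ranges of neighbours in this order overlapped, except for *Hsp90ab1* above *Hsp90aa1* and *Dnajb1* above *Hspa8*, and the places of *Hsp90aa1*, *Hspa8* and *Hspa1b* are uncertain because part of their reads was not counted. After exposure, *Hspa4l* moved from rank 1686 to rank 454 among all genes by mean TPM, and *Hsph1* from rank 3946 to rank 1588.

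Some of these levels are lower limits, because reads that map to several places were not counted (a read length of 50 bases was used). Of all 50-base stretches in the transcripts of a gene, 62.3% of those of *Hspa1b* also occur in *Hspa1a*, its near-identical neighbour on chromosome 17. For *Hsp90aa1*, 47.5% occur in transcripts of other genes, most of them in *Gm12346*, and for *Hspa8* 39.4%, most of them in *Gm15459*. The share was 3.44% for *Hsp90ab1* and at most 0.412% for the remaining genes. The level of *Hsp90aa1*, *Hspa8* or *Hspa1b* relative to any other gene is therefore uncertain, whereas *Hspa4l*, *Hsph1* and *Hspa4* are counted almost in full. Exons of *Hspa8* overlap those of small nucleolar RNA genes (*Snord14c*, *Snord14d* and *Snord14e*) over 262 of 4301 bases, and no other gene of the group overlaps another annotated exon.

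*Hspa4l* (ENSMUSG00000025757, chromosome 3 of GRCm38 from 40745382 to 40796103, plus strand) encodes an Hsp110 protein that exchanges nucleotide on Hsp70. It had 13102, 17093 and 16080 counts in the controls and 45173 and 47518 counts after exposure. The exposed pools lay close together and far above every control. After scaling by the trimmed mean of M-values (TMM), the level was 334.9 ± 26.6 CPM in controls (SD, n = 3) against 1106 ± 59.6 CPM after exposure (SD, n = 2). The log2 fold change was 1.72 (standard error 0.13, 95% interval 1.42 to 2.03, adjusted p = 0.00241 from edgeR's test), a 3.30-fold rise (95% interval 2.67 to 4.08). By p-value it ranked 12th of the 10048 genes tested. It was called with each library left out in turn (log2 fold changes of 1.64 to 1.78, adjusted p of 0.00616 to 0.0437). The call was lost with pool number as a replicate block (log2 fold change 1.76, adjusted p = 0.102 from edgeR). It was also lost when libraries were scaled by the ERCC spike-in RNAs (adjusted p = 0.679), a scaling under which the median of all genes fell to -0.23 while *Hspa4l* was at 1.498.

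*Hsph1* (ENSMUSG00000029657, chromosome 5 from 149614287 to 149636376, minus strand) encodes Hsp105, the Hsp110 protein best known for its induction by heat. It had 2097, 5800 and 3058 counts in the controls, a wide range within 1 condition. After exposure it had 9077 and 9633 counts, close to each other and above every control pool. The scaled level went from 78.0 ± 36.3 CPM (SD, n = 3) to 223.2 ± 13.4 CPM (SD, n = 2) with exposure, and the log2 fold change was 1.52 (standard error 0.36, 95% interval 0.65 to 2.38, adjusted p = 0.0948 from edgeR's test). This call lies close to the threshold. Without control pool 2, the highest control, the log2 fold change was 1.96 with an adjusted p of 0.0332. Without control pool 1, control pool 3, exposed pool 1 or exposed pool 3 the adjusted p was 0.108, 0.121, 0.358 and 0.256. DESeq2's Wald test gave an adjusted p of 0.00135 and a shrunken log2 fold change of 1.35. The call was lost with pool number as a replicate block (log2 fold change 1.97, adjusted p = 0.127 from edgeR). It was also lost with ERCC scaling (log2 fold change 1.16, adjusted p = 0.9996 from edgeR).

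*Hspa4* (ENSMUSG00000020361, chromosome 11 from 53259814 to 53300457, minus strand) is the remaining Hsp110 gene. Its counts were 4313, 4695 and 4191 in the controls and 5371 and 5615 after exposure. The exposed pools were above all controls, with a log2 fold change of 0.45 (standard error 0.16, 95% interval 0.06 to 0.84) that did not pass the test (adjusted p = 0.206 from edgeR). Together the 3 Hsp110 genes summed to 163.5, 230.2 and 193.3 TPM in the controls and to 426.1 and 488.4 TPM after exposure. *Hspa4l* made up 51.6%, 47.4% and 54.2% of that sum in the controls and 63.9% and 63.8% after exposure.

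**Figure D2:**
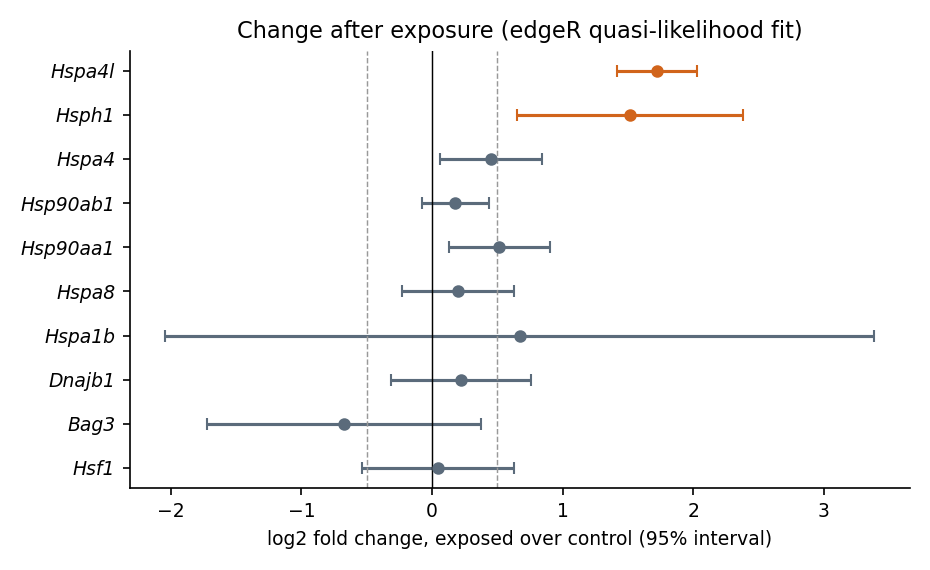
Log2 fold change between exposed and control pools for each gene, from edgeR's quasi-likelihood fit on 3 control and 2 exposed libraries, with bars for the 95% interval. Orange marks the called genes *Hspa4l* (1.72) and *Hsph1* (1.52), grey the others, and dashed lines the threshold of 0.5 in both directions.

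The promoters of the Hsp110 genes differ in the letters of the heat shock element. RefSeq promoters on GRCm38.p6, 250 bases before to 50 after a gene's start, were given for 6 of the 10 genes (*Hsph1*, *Hspa4*, *Hspa4l*, *Hspa1b*, *Dnajb1* and *Bag3*). They were searched for the paired units GAANNTTC and TTCNNGAA, each of which reads the same on both strands, and for triple units, in which a paired unit is followed after 2 more bases by another GAA or TTC. A triple unit read on one strand is the other triple unit on the opposite strand, and it contains both paired units. A paired unit was found in *Hsph1*, *Hspa1b* and *Bag3*, and in 15.1% of all 32851 promoters. A triple unit was found in *Hsph1*, and in 0.603% of all promoters. The matches are shown with up to 11 bases on each side, matched letters in capitals, because these genes share the letters but differed in their values. They lie at chr5:149636351-149636380 and chr5:149636287-149636308 (*Hsph1*, minus strand), chr17:34959324-34959353 (*Hspa1b*, minus strand) and chr7:128523614-128523632 (*Bag3*, plus strand).
Hsph1 before its RefSeq start: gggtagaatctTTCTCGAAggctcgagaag
Hsph1 after its RefSeq start, triple unit: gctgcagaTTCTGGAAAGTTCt
Hspa1b: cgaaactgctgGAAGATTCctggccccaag
Bag3: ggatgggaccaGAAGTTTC
*Hspa4l* had none of these letters in its window, and *Hspa4* had none either. The gene start in the count tables lies 231 bases upstream of the RefSeq start for *Hspa4l*, and 40 bases upstream of it for *Hsph1*. By these starts, most of the 250 bases searched before the *Hspa4l* RefSeq start lie inside the gene. Both matches of *Hsph1* also lie inside its gene. A match describes letters only, and sequence outside these windows was not searched.

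Among the Hsp90 genes, *Hsp90ab1* (ENSMUSG00000023944, chromosome 17 from 45567775 to 45573271, minus strand), the constitutive form, did not pass the test. Its counts were 104258, 106474 and 112301 in the controls and 112835 and 110266 after exposure. Its log2 fold change was 0.18 (95% interval -0.079 to 0.44, adjusted p = 0.421 from edgeR), with an upper bound of 1.35-fold. The exposed pools were above the controls in CPM but not in TPM (2574, 2608 and 2809 in the controls and 2607 and 2774 after exposure). *Hsp90aa1* (ENSMUSG00000021270, chromosome 12 from 110690605 to 110702728, minus strand), the form that stress induces in many cells, had 5312, 5095 and 5801 counts in the controls and 7252 and 6913 after exposure. Both exposed pools exceeded all controls, by a log2 fold change of 0.52 (standard error 0.17, 95% interval 0.13 to 0.91, adjusted p = 0.165 from edgeR), which did not pass the test. DESeq2 gave an adjusted p of 0.0395 with a shrunken log2 fold change of 0.47, under the threshold of 0.5.

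Among the Hsp70 genes, the constitutive *Hspa8* (ENSMUSG00000015656, chromosome 9 from 40800984 to 40810087, plus strand) had 3286, 3721 and 3278 counts in the controls and 3541 and 3648 counts after exposure. The log2 fold change was 0.20 (95% interval -0.23 to 0.63, adjusted p = 0.601 from edgeR), with an upper bound of 1.55-fold. In CPM both exposed pools were above all controls, but not in TPM (56.56, 63.56 and 57.17 in the controls and 57.05 and 64.0 after exposure). The stress-inducible *Hspa1b* (ENSMUSG00000090877, chromosome 17 from 34956436 to 34959238, minus strand) had 915, 659 and 370 counts in the controls. It had 1859 counts in exposed pool 1, the highest of all libraries, and 70 counts in exposed pool 3, the lowest. Its log2 fold change of 0.67 (95% interval -2.04 to 3.39, adjusted p = 0.786 from edgeR) turned to -3.09 without exposed pool 1 and was 1.59 without exposed pool 3, with adjusted p-values of 0.291 and 0.2698. No direction can be given for it. *Hspa1a* had 687, 323 and 227 counts in the controls and 452 and 63 counts after exposure, again lowest in exposed pool 3, and a log2 fold change of -0.59 (adjusted p = 0.763 from edgeR).

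The marker genes of other cells are given beside *Hspa1b*, as they also differed between pools of one condition. Microvillar and gland markers summed to 109, 189.3 and 102.3 TPM in the controls and to 391.9 and 47.8 TPM after exposure. Most of each sum was *Bpifb3*, at 384.2 TPM in exposed pool 1 and at 38.0 TPM in exposed pool 3, and other genes of the list were highest in controls, such as *Aqp5* (27.1 TPM in control pool 2) and *Trpm5* (14.5 TPM in control pool 3). Immune markers summed to 792.2, 102.3 and 99.8 TPM in the controls and to 946.4 and 265.2 TPM after exposure, with *Cd74* highest in control pool 1 and exposed pool 1 and *Fcer1g* highest in exposed pool 3. Sustentacular markers summed to 425.2, 426.7 and 187.5 TPM in the controls and to 409.2 and 188.6 TPM after exposure. The part of such cells in the values of *Hspa1b* was not tested.

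**Figure D3:**
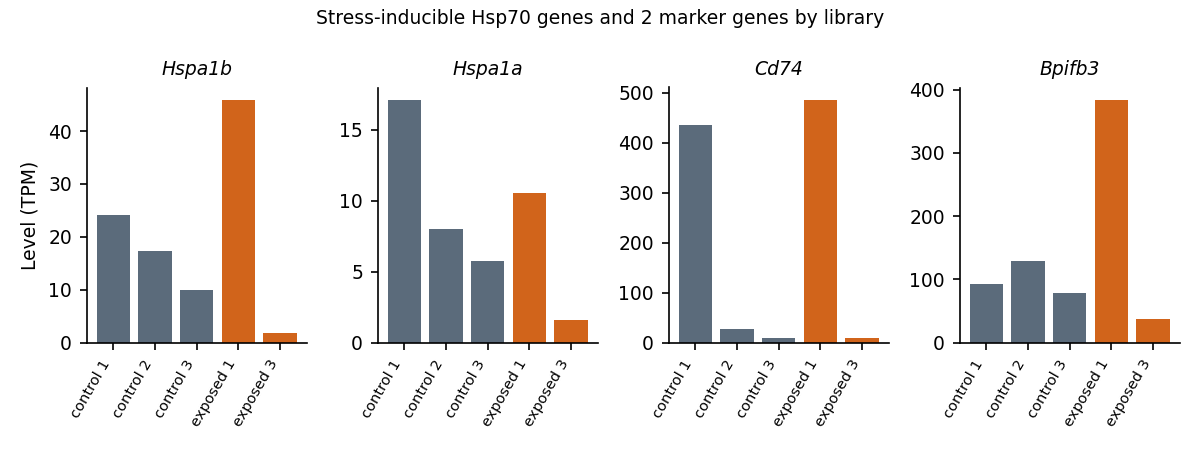
Levels in TPM of *Hspa1b*, *Hspa1a*, and of *Cd74* and *Bpifb3*, the most abundant genes of the immune and of the microvillar and gland markers, in each library, with control pools in grey and exposed pools in orange and a separate linear axis from 0 for each gene. *Hspa1b* and *Bpifb3* are highest in exposed pool 1, and *Hspa1b*, *Hspa1a*, *Cd74* and *Bpifb3* are all lowest in exposed pool 3, whereas *Fcer1g*, another immune marker, was at its highest value there (73.5 TPM).

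*Dnajb1* (ENSMUSG00000005483, chromosome 8 from 83608193 to 83612653, plus strand), the main stress-inducible Hsp40, had 3719, 3453 and 3206 counts in the controls and 4336 and 3079 counts after exposure. The exposed pools lay on both sides of the controls, with a log2 fold change of 0.22 (95% interval -0.31 to 0.76, adjusted p = 0.645 from edgeR). *Bag3* (ENSMUSG00000030847, chromosome 7 from 128523616 to 128546981, plus strand), which links Hsp70 to autophagy of its clients, was the only gene of the group with a negative estimate. It had 406, 838 and 915 counts in the controls and 394 and 421 counts after exposure, so that control pool 1 was at the level of the exposed pools. The log2 fold change of -0.67 (95% interval -1.72 to 0.37, adjusted p = 0.456 from edgeR) did not pass the test. *Hsf1* (ENSMUSG00000022556, chromosome 15 from 76477422 to 76501913, plus strand) had 2305, 2009 and 2534 counts in the controls and 2351 and 1977 counts after exposure. These ranges overlap, and the log2 fold change was 0.045 (95% interval -0.54 to 0.63, adjusted p = 0.946 from edgeR). The activity of the Hsf1 protein is not measured by its transcript.

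Ratios between genes of one library do not depend on how libraries are scaled. The ratio of *Hspa4l* to *Hspa8*, in TPM, was 1.49, 1.72 and 1.83 in the controls and 4.77 and 4.87 after exposure. The ratio of *Hspa4l* to *Hspa4* was 1.46, 1.75 and 1.84 in the controls and 4.04 and 4.07 after exposure. Both ratios were separated between conditions, by 2.88-fold and 2.42-fold (two-sided exact permutation p = 0.1 for each, the smallest that 3 pools against 2 allow). The ratio of *Hsph1* to *Hspa8* was 0.378, 0.923 and 0.552 in the controls and 1.52 and 1.56 after exposure (exact permutation p = 0.2). The ratio between the 2 called genes varied among control pools, where *Hspa4l* was 3.95, 1.86 and 3.32 times as abundant as *Hsph1*, but after exposure this ratio was 3.14 and 3.12. The ratio of *Hsp90aa1* to *Hsp90ab1* was also separated, by 1.27-fold (exact permutation p = 0.1). It was 0.0389, 0.0365 and 0.0394 in the controls and 0.0490 and 0.0478 after exposure. A total of 8 pairs, chosen with these levels known, were compared, and with Benjamini-Hochberg adjustment no p-value was under 0.267.

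**Figure D4:**
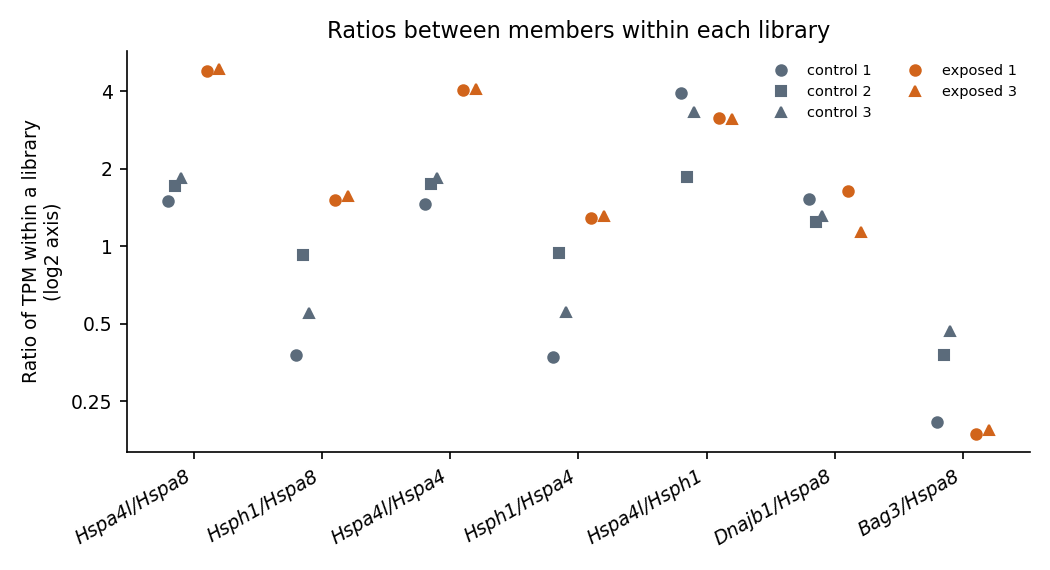
Ratio of the TPM of one gene to that of another within each library (log2 axis), with control pools in grey, exposed pools in orange and marker shape for the pool number. The ratios of *Hspa4l* and *Hsph1* to *Hspa8* and *Hspa4* are higher in both exposed pools than in any control pool, and the ratio of *Hspa4l* to *Hsph1* is not.

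The other chaperones and co-chaperones are given by list, beside 5.27% of all genes tested that were called in either direction. For these and all later lists, 927 of the 10048 genes tested were higher and 998 lower at an unadjusted p-value under 0.05. DESeq2 called 672 of the 10048 higher and 715 lower. The most abundant gene of a list is the one with the highest mean TPM over all 5 libraries, which a change with exposure can shift. Of 27 other Hsp40 genes tested, 2 rose and 0 fell by edgeR's test. At an unadjusted p-value under 0.05, 6 were higher and 3 lower, and DESeq2 called 5 higher and 2 lower. Among the 6 is *Dnajb5*, with 99, 120 and 103 counts in the controls and 366 and 148 after exposure. It passed the filter on low counts only through the exposed pools, so its direction is not independent of the filter. *Dnajb2*, a neuronal Hsp40 that guides clients to the proteasome, rose from 148.5 ± 6.13 to 262.6 ± 9.77 TPM (SD, n = 3 and n = 2, log2 fold change 0.99, adjusted p = 0.0159 from edgeR). *Dnajc12* rose from 32.1 ± 2.11 to 68.7 ± 3.91 TPM (log2 fold change 1.26, adjusted p = 0.0267 from edgeR). *Dnaja2* was the most abundant of the list, at 312.8 TPM in control and 257.7 TPM after exposure, where *Dnajb2* was at a slightly higher mean. The median log2 fold change of the list was 0.11, compared with -0.026 for all genes tested.

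Of 18 Hsp90 co-chaperones tested, 1 fell and 0 rose by edgeR's test, with 2 (*Cdc37* and *Cdc37l1*) higher at an unadjusted p-value under 0.05 and 1 (*Cdc37l1*) by DESeq2. The gene that fell was *Fkbp4*, a prolyl isomerase that works with Hsp90 on steroid receptors. Its counts were 11903, 12871 and 14101 in the controls and 7246 and 7373 after exposure, or -0.70 on the log2 scale with a standard error of 0.15 (adjusted p = 0.0648 from edgeR). *Stip1*, which joins Hsp70 to Hsp90 and is the most abundant of this list (*Nudc* was higher in the controls, at 368.2 against 363.4 TPM), had 318.9, 389.2 and 382.2 TPM in the controls and 317.8 and 435.6 TPM after exposure. The list of Hsp70 co-chaperones had 10 genes tested, among them *Hsbp1*, which encodes heat shock factor binding protein and is no Hsp70 co-chaperone. Of the 10, 0 were called by edgeR, and 1 (*Bag2*) was lower at an unadjusted p-value under 0.05 and by DESeq2. *Bag2*, at 128 counts in exposed pool 1, passed the filter on low counts only through the controls, where it is high. Its direction is therefore not independent of the filter. *Hsbp1* was the most abundant, at 423.4 TPM in control and 394.2 TPM after exposure, followed by *Sgta*, which averaged 242.2 TPM over all libraries.

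Of 5 other Hsp70 genes tested, 0 were called by edgeR, 1 (*Hspa14*) was higher at an unadjusted p-value under 0.05 and by DESeq2. *Hspa14*, the most abundant, averaged 33.4 TPM in control and 51.8 TPM after exposure. For the heat shock factors other than *Hsf1* and their binding protein, *Hsf2* and *Hsbp1* were tested and 0 were called by edgeR, at an unadjusted p-value under 0.05 or by DESeq2. *Hsf3* and *Hsf4* had no reads in any library.

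Most small heat shock proteins were absent or low. Of 10 genes, 4 had no reads in any library and 2 were tested, of which 0 were called by edgeR or DESeq2 or had an unadjusted p-value under 0.05. *Hspb1*, strongly induced by heat in many cells, had 5, 1 and 17 counts in the controls and 12 and 28 counts after exposure, far under the 141 counts of the filter. The most abundant of the list, *Hspb11*, which is also a component of the ciliary transport machinery, had 1315, 849 and 1176 counts in the controls and 551 and 592 counts after exposure.

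The chaperonin and prefoldin genes, which fold actin and tubulin, gave no call by edgeR or DESeq2 among 8 and 6 genes tested. At an unadjusted p-value under 0.05, 1 chaperonin gene, *Cct4*, was higher. Their median log2 fold changes were 0.14 and -0.15, and the most abundant genes were *Cct5* (408.6 TPM in control and 399.3 TPM after exposure) and *Vbp1* (209.6 and 163.1 TPM, with *Pfdn5* at 204.4 and 167.1 TPM). Of 14 mitochondrial chaperones, 1 rose and 0 fell, with 0 lower at an unadjusted p-value under 0.05 or by DESeq2. It was *Hspa9*, the mitochondrial Hsp70, which went from 168.5 ± 18.5 to 244.6 ± 14.5 TPM (SD, n = 3 and n = 2, log2 fold change 0.71, adjusted p = 0.0444 from edgeR). *Hspa9* was the most abundant of its list over all libraries, but in the controls *Clpp* was above it at 216.4 TPM. Of 19 chaperones of the endoplasmic reticulum, 0 were called by edgeR. At an unadjusted p-value under 0.05, 3 were higher and 2 lower, and DESeq2 called 1 higher and 2 lower. *Hspa5*, the Hsp70 of this compartment, averaged 701 TPM in control and 778.4 TPM after exposure, and *Pdia3* 712.2 and 696.6 TPM.

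**Figure D5:**
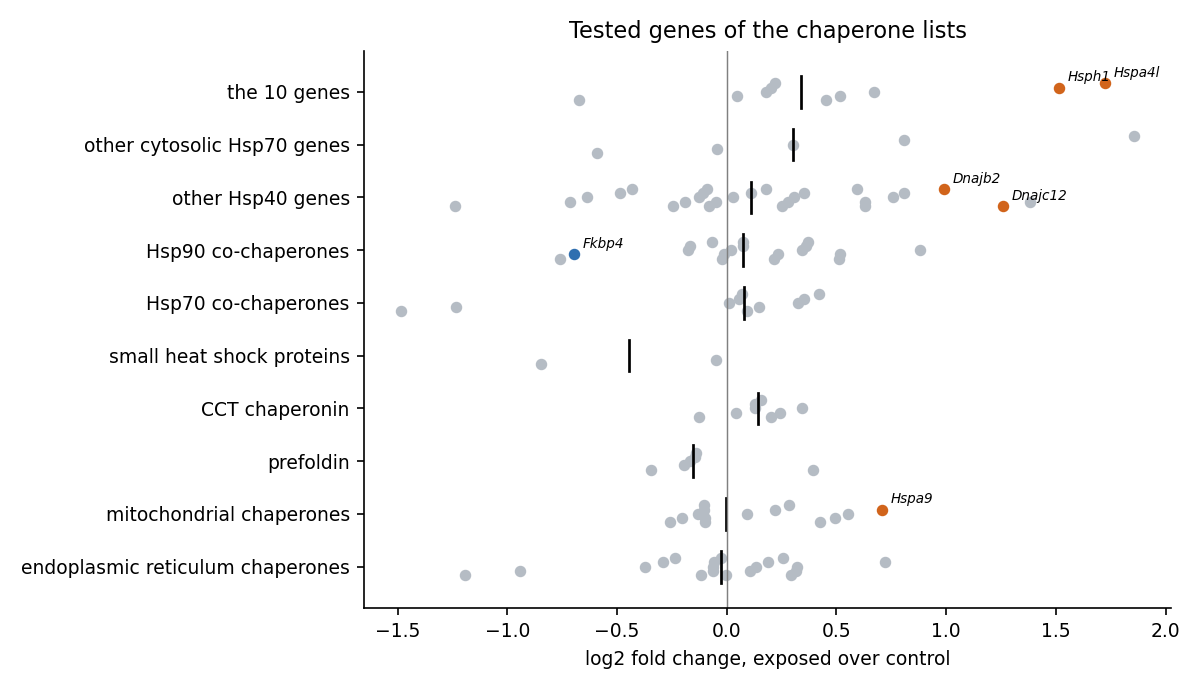
Log2 fold changes of the tested genes of the 10 chaperone lists, from the 10 genes themselves to the endoplasmic reticulum chaperones, one point per gene, with called genes in orange (higher) or blue (lower) and named, and a black bar for the median of the list. *Hspa4l* and *Hsph1* have the largest changes of all called genes drawn, and *Fkbp4* is the only one called lower.

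Of 13 textbook targets of Hsf1 tested outside the 10 genes, 1 rose, 1 fell and 11 did not pass the test. Their median log2 fold change was 0.092. Of all genes tested, 3.42% rose and 1.85% fell. At an unadjusted p-value under 0.05, 2 of the 13 were higher and 1 lower, and DESeq2 called 2 higher and 1 lower. Among the higher ones by both is *Dnaja1* (log2 fold change 0.59, adjusted p = 0.109 from edgeR and 0.00703 from DESeq2). The gene that fell was *Fkbp4*. *Ubb*, a polyubiquitin gene, was the most abundant of the list, at 1238 TPM in control and 1305 TPM after exposure.

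Early genes are genes that both tissue dissociation and neuronal activity can raise. Of 14 tested, 5 rose and 0 fell by edgeR's test, where 3.42% of all genes tested rose and 1.85% fell. At an unadjusted p-value under 0.05, 9 were higher and 2 lower, and DESeq2 called 9 higher and 1 lower. Over all 10048 genes tested, these counts were 927 and 998 unadjusted, and 672 and 715 by DESeq2. Their median log2 fold change was 1.17. *Nr4a1*, an orphan nuclear receptor, had 3040, 3025 and 4296 counts in the controls and 76181 and 54703 counts after exposure. It was the most abundant of the list after exposure, at 1340 TPM, but was at 73.1 TPM in the controls, where *Ier2* led at 540.2 TPM. *Socs3*, *Junb* and *Egr1* rose by log2 fold changes of 3.53, 1.65 and 1.49 (adjusted p of 0.0279, 0.0723 and 0.0579 from edgeR). *Socs3*, at 84 counts in control pool 3, and *Zfp36*, at 84 in control pool 2, passed the filter on low counts only through the exposed pools. *Jund*, at 99 counts in exposed pool 1, passed it only through the controls. Each passed in the condition where it is high, so these directions are not independent of the filter. The study's methods describe 1 protocol of warm enzymatic dissociation for all pools, and the part of dissociation in the values of *Hspa4l* and *Hsph1* was not tested.

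The sorted cells carried the markers of mature OSNs in every pool. The 10 markers of mature neurons summed to 86460, 96480 and 95030 TPM in the controls and to 76920 and 78150 TPM after exposure, led by *Stoml3*. Of these markers 3 were called lower, the channel subunit genes *Cnga2* and *Cnga4* and the receptor transport gene *Rtp1* (log2 fold changes of -0.83, -0.53 and -1.07), and 0 were called higher by edgeR or DESeq2, with 1 (*Gfy*) higher and 4 lower at an unadjusted p-value under 0.05. Immature markers, led by *Ncam1*, summed to 2103, 2145 and 2063 TPM in control and to 1813 and 1685 TPM after exposure. *Gap43* rose and *Stmn4* fell (log2 fold changes of 0.94 and -1.01, adjusted p of 0.0891 and 0.0446 from edgeR).

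Of the markers of other cells, 1 of 7 immune genes tested rose, *Fcer1g* (log2 fold change 2.63, adjusted p = 0.0805 from edgeR), and *Ptprc*, which defines leukocytes, was at 0, 0.217 and 0.0041 TPM in the controls and at 2.05 and 2.13 TPM after exposure. DESeq2 called 2 immune genes higher, *Fcer1g* and *Ptprc*. All 7 immune genes tested had a positive log2 fold change, with a median of 1.98. Of the 7 tested, 5 (*Ptprc*, *Tyrobp*, *Cd52*, *Fcer1g* and *S100a9*) passed the filter on low counts only through the exposed pools, where they are high, so the direction of the tested immune genes is not independent of the filter. Among those that did not pass, *C1qb* was at 41.0, 5.13 and 0 TPM in the controls and at 4.52 and 1.32 TPM after exposure. None of the 5 sustentacular, 2 microvillar and gland or 2 glial, vascular and blood markers tested was called by edgeR or DESeq2, with 1 of the last lower at an unadjusted p-value under 0.05. The most abundant over all libraries were *Sec14l3* (94.4 TPM in control and 100 TPM after exposure, with *Cyp2a5* at 117.3 TPM in control), *Bpifb3* and *Hbb-bs*, and *Hbb-bs* ranged from 931.9 TPM in control pool 1 to 15.2 TPM in exposed pool 3. Basal and progenitor markers summed to at most 10.5 TPM in any pool, 0 of them were tested, and *Neurod1*, the most abundant over all libraries, was at 0 in all pools but exposed pool 3 (6.42 TPM). The part of other cells in the values of *Hspa4l* and *Hsph1* was not tested.

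The genes whose levels followed the chaperones most closely across the 5 libraries were sought by Pearson's r of log2 CPM, as a description over few libraries that all share the split between conditions. For *Hspa4l*, the closest were the antioxidant gene *Srxn1* (r = 0.999), the endocytic adaptor gene *Ap2a2* (0.999) and the synaptic gene *Snap25* (0.998), and 46 genes had an r above 0.99. For *Hsph1* they were *Fbxw11* (0.999), *Acin1* (0.999) and *Col18a1* (0.998), with 21 genes above 0.99. For *Hsp90aa1* they were *Cdc42* (0.998), *Eapp* (0.998) and *Sgsm3* (0.998), and for *Hspa8* the closest included *Ufm1* (0.998) and *Tmem125* (0.996). *Col18a1*, with 0, 66 and 3 counts in the controls, passed the filter on low counts only through the exposed pools. So did *Tmem125*, with 94 counts in control pool 3. Both are high in the exposed pools, so their likeness to the chaperones is not independent of the filter.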

How the data were processed

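The authors mapped single reads with STAR 2.7.0a to GRCm38 and, per the file headers, counted reads on exons with featureCounts 1.6.3, ignoring strand and dropping multi-mapping reads. A read length of 50 bases was used here. The study's methods state it for the *Olfr16* libraries and call the *Olfr151* reads short single reads. The deposited values are raw counts per gene, 1 table per pool, with 92 ERCC spike-ins and the reporter. Of 55411 genes, 55144 were named.

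A gene was tested if all libraries of a condition held 141 counts or more, the dip in the distribution of log2 counts, using edgeR 4.0.16 under R 4.3.3 (TMM, robust glmQLFit, glmQLFTest), with condition as the only factor. Standard errors were taken from the F statistic and intervals from the t distribution of the fit. TPM was computed from counts and exon lengths. DESeq2 1.42.0 with apeglm 1.24.0, other scalings, filters and tests and each library left out were alternatives. The procedure was tested on simulated data, with 200 changes in equal groups of 2-, 4-, 8- and 16-fold. It recovered 139 of them, with 21 false calls. By group it recovered 6, 38, 48 and 47, so most 2-fold changes were missed. A gene that did not pass the test is therefore not shown to be unchanged.

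The members and lists were chosen with earlier results of these data known, and so support nothing independently. The text names all members and, per list, up to 4 called genes in each direction and the most abundant gene by mean TPM over all libraries, and genes that exceed it in 1 condition were added later. *Hspa1a*, *Hspb1*, the heat shock factors without reads, *Ptprc*, *Aqp5*, *Trpm5*, *C1qb*, the genes named for the filter, list genes past only an unadjusted p-value or DESeq2, the 8 ratios and the genes close to *Hspa4l* were chosen after their values were seen. Exposed pool 2 and the promoters of 4 members were not analysed here, and some genes that the naming rule selects are not reported here.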

Additional observations from a re-analysis of the deposited data

How the results depend on the processing

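With 2 exposed pools, the spread within that condition rests on 1 difference per gene, and the number of calls moved with most settings. The 344 genes called higher and 186 called lower became 672 and 715 with DESeq2 and apeglm, 94 and 48 with ERCC scaling, 162 and 74 with edgeR's default filter, 190 and 90 at an adjusted p-value of 0.05, and 147 and 55 with a test against the fold threshold. With each library left out they ranged from 93 to 352 and from 19 to 436. Calls higher made up 64.9% of all calls, 48.4% with DESeq2 and 44.7% without control pool 3. Their share was 83.0% without exposed pool 1 and 91.7% with pool number as a replicate block. Of the 10 chaperone genes, 2 were called higher, 1 (*Hspa4l*) with edgeR's default filter, with no filter, at 0.05 or with the test against the threshold, 0 with ERCC scaling, and 1 to 2 with a library left out. The cause was not tested.

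*Hspa4l* was called in 13 of 15 alternatives and *Hsph1* in 5 of 15, both with a positive log2 fold change in all 15. The genes that changed sign had not been called: with ERCC scaling *Hsp90ab1* (-0.013), *Dnajb1* (-0.006) and *Hsf1* (-0.15), without exposed pool 1 *Dnajb1* (-0.036), *Hsf1* (-0.077) and *Hspa1b* (-3.09), and without control pool 2 *Hsf1* (-0.071). *Hspa1b* reached 1.59 and *Hsf1* 0.15 with another library left out, and *Dnajb1* 0.41.

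Pools 1 and 3 of both conditions share a number, and the labels do not say whether it marks a day or batch. Control pool 2 has no exposed pool of its number here. A block on pool number leaves fewer residual degrees of freedom than the 3 of the main fit, so a loss of calls cannot be read as a difference between pools. With pool number as a replicate block, 11 genes were higher, 1 was lower and 0 of the 10 chaperone genes were called (*Hspa4l* 1.76, adjusted p = 0.102 from edgeR), and *Hspa1b* (-0.57) and *Hsf1* (-0.082) changed sign. Deviations from the condition mean correlated with r of 0.028 for pool 1 and -0.072 for pool 3 across genes. With 2 exposed pools, their deviations are equal and opposite, and control pool 3 with exposed pool 1 gave 0.072. The values for pools 1 and 3 are therefore not separate checks.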
